A study of Drosophila melanogaster with 35 samples.

Results

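The vacuolar ATPase (V-ATPase) subunit genes of Drosophila melanogaster were described in the adult female fat body. The members are all fat body rows whose gene identifier maps to a symbol beginning with Vha, which gave 30 genes out of 14649 rows. The naming table holds 33 such symbols, and Vha44, Vha16-2 and Vha16-3 matched no row and were not analysed here. Vha44 encodes subunit C, so that subunit has no member below. A row may hold one of these genes under an identifier that the naming table does not list, and this could not be settled from the sources used here. The accessory subunit gene ATP6AP2 carries another kind of symbol and was not a member.

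The V-ATPase is a rotary proton pump that acidifies lysosomes, endosomes and secretory vesicles, and in some epithelia it also works at the plasma membrane. A cytosolic sector, V1, hydrolyses ATP with subunits A and B and is joined by stalk and regulatory subunits D to H. A membrane sector, V0, moves protons through subunits a and c, with c'', d, e and the accessory protein Ac45. In flies many subunits are encoded by several paralogous genes, some of which are used in particular tissues, and the pump is a hallmark of the Malpighian tubule, where it drives urine secretion. In the fat body, the fly's liver and adipose tissue, the pump serves lysosomes, autophagy and the sensing of amino acids by TOR.

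All flies were females aged 30 days that carried S106, a GeneSwitch driver that is active when the steroid RU486 is eaten. Poly(A) RNA libraries of 4 groups were used, namely 5 libraries of S106 control and 4 of S106 switch, which carry the driver without a foxo transgene, and 4 of S106>UASfoxo control and 4 of S106>UASfoxo switch, which carry the driver with UASfoxo. Flies of both switch groups were kept on food with 200 µM RU486 for 21 days, followed by 7 days without it, and the induction label of the control groups reads as without RU486. The driver sets where and when UASfoxo can be expressed, and the tissue was dissected after the inducer had been withdrawn. The labels do not say whether the libraries of a group came from separate cultures, so each p-value speaks only of the variation among the libraries at hand, which may be technical.

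The 17 libraries held 6708078 to 27527703 counts. Fat body markers were abundant in every library, and their summed CPM (library-scaled counts, with TMM factors) ran from 32068, found in replicate 4 of S106>UASfoxo control, to 160850, found in replicate 3 of S106 switch. Genes on the marker lists of other organs and cell types were counted too. Oenocyte markers summed to 20478 to 84389 CPM and muscle markers to 1280 to 5075 CPM. Ovary and eggshell markers summed to 19.8 to 5340 CPM, enterocyte and digestive enzyme markers to 15.7 to 1101.5 CPM, and Malpighian tubule markers to 287 to 777 CPM. The testis markers summed to 128 to 755 CPM although all flies were female. A sum of that size alone therefore does not show that RNA of the named organ was present. None of the genes with a row in these marker lists was at 0 in all libraries. The foxo gene itself ranged from 72.5 to 240 CPM and had a log2 fold change of 0.63 ± 0.35 (SE) between S106>UASfoxo switch and S106>UASfoxo control, with an adjusted p of 0.457 in edgeR's quasi-likelihood test. In bulk tissue, fewer cells of a type and less RNA per cell cannot be told apart.

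Most subunits were served by a single paralogue. Of the 30 members, 18 passed the filter on low counts, namely 13 genes that led their subunit and 5 further paralogues, and 12 did not pass. Levels are given as CPM per kilobase of annotated exon, so that genes of different length can be compared. Each mean is over 17 libraries with its SD, and the leading paralogue of a subunit is the gene with the highest mean level. The plot of levels by subunit shows the leading gene far above its paralogues in all subunits with paralogues except a and e.

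**Figure D1:**
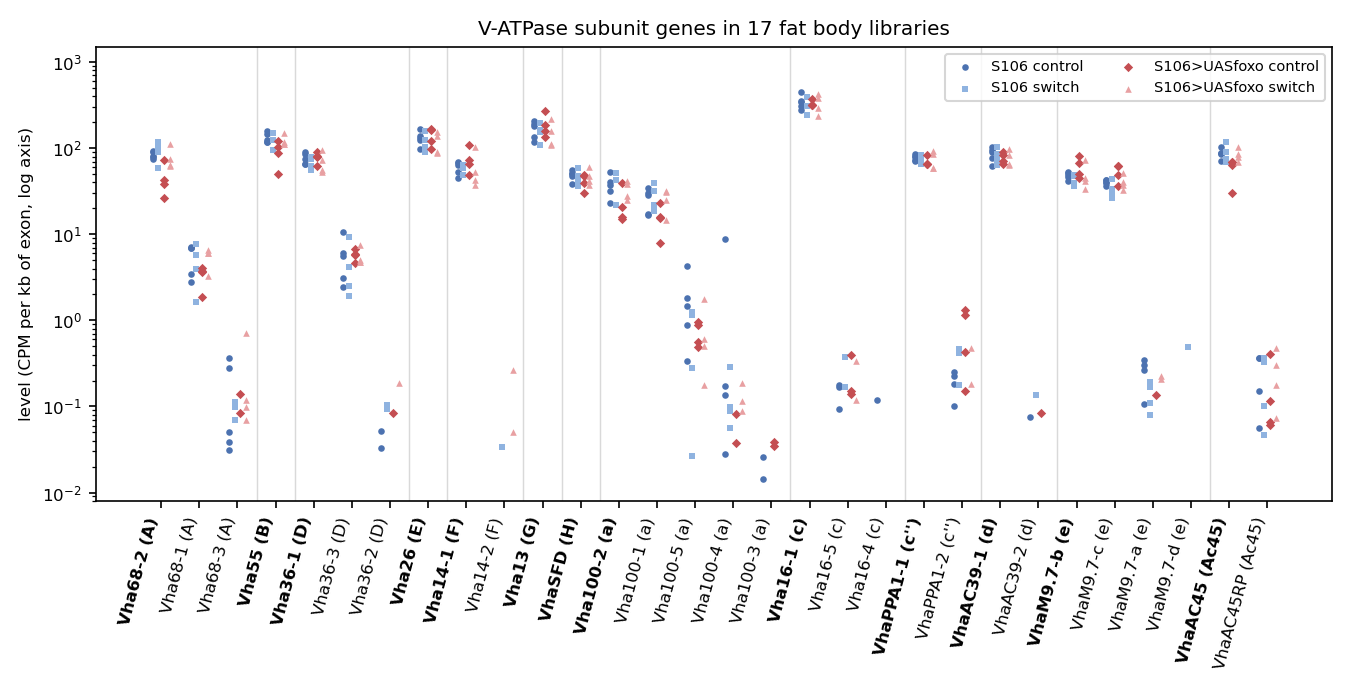
Level of each V-ATPase subunit gene in each library, in CPM per kb of exon on a log axis, grouped by subunit (letter in brackets). Each symbol is 1 library of the group named in the key, leading paralogues are in bold, and libraries with no count are not drawn. Vha16-1 had the highest mean level at 328, and in subunits a and e a pair of genes had similar levels.

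In the catalytic sector the highest mean levels were those of the peripheral stalk, though Vha26 exceeded Vha55 in only 8 of 17 libraries. Vha13, which encodes subunit G, had a level of 165 ± 43.8, and Vha26, which encodes subunit E, 127 ± 28.4. Vha55, the only gene for the nucleotide-binding subunit B, stood at 120 ± 26.9. Vha68-2, the leading gene for the catalytic subunit A, stood at 75.6 ± 25.6. The central stalk genes followed, with Vha36-1 (subunit D) at 73.0 ± 12.9 and Vha14-1 (subunit F) at 61.8 ± 19.2. VhaSFD, the gene for the regulatory subunit H, had a level of 45.8 ± 8.19.

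In the membrane sector Vha16-1 led all members. This gene encodes subunit c, which is present in several copies in the proton-carrying ring, and its level was 328 ± 62.0. VhaAC39-1 (subunit d) had a level of 81.0 ± 14.2, the accessory gene VhaAC45 79.9 ± 19.5 and VhaPPA1-1 (subunit c'') 74.2 ± 10.1. The small subunit e was carried by VhaM9.7-b at 50.1 ± 12.7 and VhaM9.7-c at 41.7 ± 9.84. Subunit a, which holds the path of the protons, was carried by Vha100-2 at 33.4 ± 11.8 and Vha100-1 at 23.8 ± 8.65. The remaining tested paralogues were low, with Vha36-3 at 5.34 ± 2.31, Vha68-1 at 4.79 ± 1.94 and Vha100-5 at 1.03 ± 0.995.

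The order of the top genes held across libraries. Vha16-1 exceeded Vha13 in 17 of 17 libraries, and Vha13 exceeded Vha26 in 17 of 17. Most lower neighbours did not keep an order, since Vha26 exceeded Vha55 in 8 of 17 libraries, VhaAC39-1 exceeded VhaAC45 in 8, VhaAC45 exceeded Vha68-2 in 9 and VhaPPA1-1 exceeded Vha36-1 in 10. Vha55 exceeded VhaAC39-1 in 16 of 17 libraries, and Vha14-1 exceeded VhaM9.7-b in 16. The difference between Vha100-1 and Vha36-3 was again present in 17 of 17 libraries, and so was that between Vha68-1 and Vha100-5.

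The share of a subunit's summed level that came from its leading gene was above 99% for 5 subunits. The mean shares were 99.975% for Vha14-1 in subunit F, 99.957% for Vha16-1 in subunit c, 99.5% for VhaPPA1-1 in subunit c'', 99.98% for VhaAC39-1 in subunit d and 99.8% for VhaAC45. Subunits A and D had a minor second gene. Vha68-2 made up 93.6% ± 2.28 (SD, n = 17) of subunit A and led in 17 of 17 libraries, with Vha68-1 at 6.25%. Vha36-1 made up 93.2% ± 2.54 of subunit D and led in 17 of 17, with Vha36-3 at 6.78%. Subunits B, E, G and H each have a single member.

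The 12 genes that did not pass the filter were close to the floor of detection. Over all 17 libraries together, VhaPPA1-2 had 40 counts, VhaAC45RP 58, Vha68-3 61, VhaM9.7-a 17, Vha16-5 16, Vha36-2 7, Vha14-2 5, VhaAC39-2 5, Vha100-3 4, VhaM9.7-d 2 and Vha16-4 1. Position did not go with level, since Vha68-3 lies 178 bases from Vha68-2 on chromosome arm 2L of the BDGP6 annotation and had a mean level of 0.133, against 75.6 for its neighbour. In the same way VhaPPA1-2 lies 2052 bases from VhaPPA1-1 on 3R, with 0.325 against 74.2. An exon of VhaPPA1-2 overlaps CG3817 on the opposite strand, which had 5.55 to 20.1 CPM, and the strand setting of the counting is not given in the sources used here.

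Vha100-4 was the exception among the low genes. This subunit a gene is known from the acid-secreting copper cells of the fly midgut. It had 608 counts in all, of which 564 came from S106 control replicate 4, and its level there was 8.81, against 0 to 0.290 in the other 16 libraries. The same library had the highest sum of enterocyte and digestive enzyme markers, 1101.5 CPM, and the highest level of lab, a copper cell transcription factor, at 1.66 CPM from 39 counts. S106>UASfoxo switch replicate 2 had the next highest enterocyte sum, 748 CPM, with 2 counts of Vha100-4. Vha100-5 was also highest in S106 control replicate 4, with a level of 4.28 against 0.0264 to 1.84 elsewhere. The part of gut transcripts in these values was not tested.

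Subunit a, like subunit e, had no gene that led in every library. Vha100-2 had a level of 52.6, 31.7, 36.9, 23.0 and 40.9 in S106 control replicates 1 to 5, and 51.9, 21.9, 42.3 and 43.1 in S106 switch replicates 1 to 4. It had 39.3, 16.0, 20.7 and 15.3 in the S106>UASfoxo control libraries and 28.1, 41.1, 24.8 and 38.2 in the S106>UASfoxo switch libraries. The groups overlapped throughout, and the lowest value fell in S106>UASfoxo control replicate 4. Vha100-1, whose product is known for its role in neuronal endolysosomes and synaptic vesicles, had 17.4, 34.3, 29.0, 30.4 and 16.7 in S106 control and 18.9, 32.1, 39.2 and 21.6 in S106 switch. It had 15.5, 15.7, 23.3 and 7.84 in S106>UASfoxo control and 25.1, 30.9, 31.9 and 14.8 in S106>UASfoxo switch. The genes had no steady relation across the 17 libraries, with a Pearson r of log2 CPM of −0.24 after centring within groups, 0.19 without centring and 0.08 with the runs of library numbers described below also removed.

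Vha100-2 made up 56.7% ± 12.5 of the subunit a level and led in 12 of 17 libraries, while Vha100-1 made up 40.7% ± 11.3. In S106 control the Vha100-2 share was 73.6%, 46.6%, 55.2%, 34.6% and 70.5%, and in S106 switch 71.9%, 40.2%, 51.1% and 66.5%. In S106>UASfoxo control it was 70.4%, 49.1%, 46.5% and 64.5%, and in S106>UASfoxo switch 52.5%, 55.6%, 43.3% and 71.3%. Every group held libraries led by Vha100-2 and at least 1 library with a share under 50%, and the groups overlapped over nearly their whole range. The group means were 56.1%, 57.4%, 57.6% and 55.7% in the order above. Counting error was smaller than this spread, since the exact 95% binomial interval of the Vha100-2 share of subunit a counts was 2.68 to 7.24 percentage points wide per library, on 698 to 4950 counts. Such intervals cover counting error only.

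The share followed the numbering of the libraries more than the groups. The labels number the libraries, and these numbers were divided here into 5 consecutive runs, by the order in which the groups recur. The labels themselves do not mark where a run begins or ends. Each run holds both genotypes and both treatments, and 3 of the 5 lack 1 of the 4 groups. Of the variance of the Vha100-2 share, 73.3% lay between runs and 0.461% between groups. Such percentages, here and below, are not corrected for the number of runs or groups. Values without any structure would also leave some variance between runs, and some between groups. The share was 70.4% to 73.6% in the 3 libraries of the first run, 40.2% to 52.5% in the 4 of the second, 51.1% to 55.6% in the 3 of the third, 34.6% to 66.5% in the 4 of the fourth and 64.5% to 71.3% in the last 3 libraries. The labels do not say what a run of numbers stands for.

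**Figure D2:**
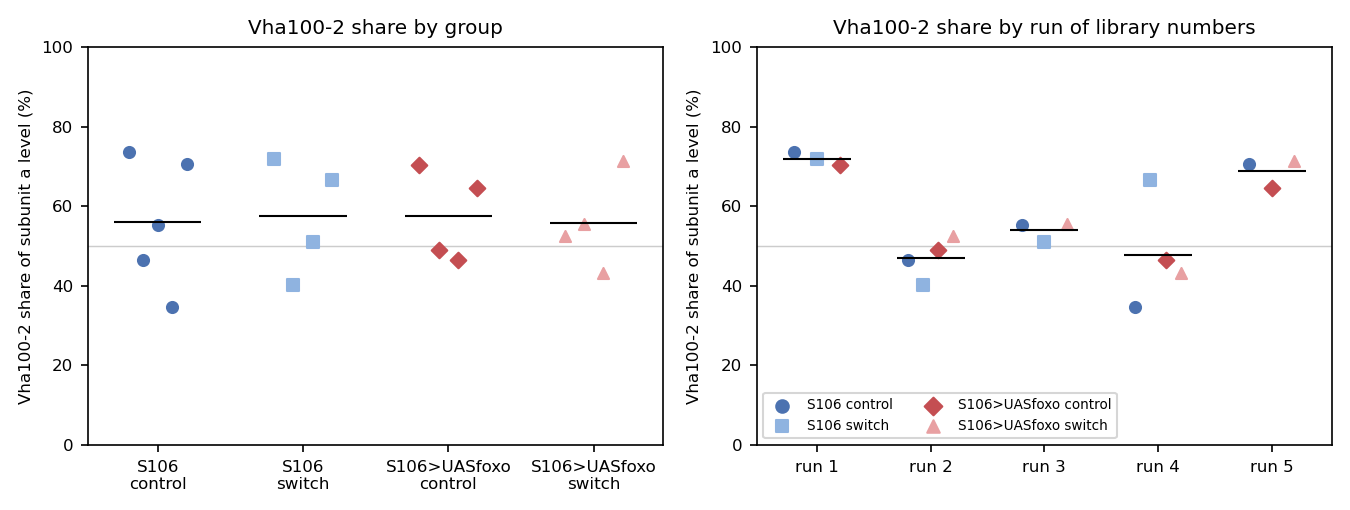
Share of the summed subunit a level that came from Vha100-2 (percent), by group on the left and by run of consecutive library numbers on the right. Each symbol is 1 library and each black line the mean of its column; the group means lie between 55.7% and 57.6%, while the libraries of the first run lie at 70.4% to 73.6% and those of the second at 40.2% to 52.5%.

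The split of subunit a went with several marker lists across libraries. The log2 ratio of Vha100-1 to Vha100-2 had an r (Pearson) of −0.89 and a rho (Spearman) of −0.82 with the mean log2 CPM of 17 ovary and eggshell markers, over 17 libraries centred within groups. The r was −0.87 without the 2 libraries farthest from the median of the markers, and −0.79 when the runs of library numbers were also removed. The same ratio had an r of 0.855 with the hemocyte markers, 0.830 with the runs also removed, 0.732 with the fat body markers and 0.720 with the ATP synthase genes. Ovary and eggshell sums were 2969.5 CPM in S106>UASfoxo switch replicate 4 and 5340 CPM in S106 switch replicate 4, where Vha100-2 made up 71.3% and 66.5%. They were 24.2 CPM in S106 control replicate 2 and 19.8 CPM in S106>UASfoxo control replicate 2, where it made up 46.6% and 49.1%. The libraries share tissue, depth and composition, so these correlations are descriptions without a p-value, and the part of ovarian transcripts in the subunit a ratio was not tested. Vha100-1 also shares exon sequence with Alg13 on the opposite strand, which had 2.82 to 7.90 CPM, against the 25.8 to 129 CPM of Vha100-1.

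Subunit e was shared more evenly and with less spread. VhaM9.7-b made up 54.4% ± 3.96 of its level, within 47.4% to 59.5%, and led in 14 of 17 libraries, and VhaM9.7-c made up 45.4%. Of the variance of this share 67.9% lay between runs of library numbers and 6.32% between groups. Both genes had similar patterns across libraries, with an r of 0.65, which was 0.22 once each library's trend of counts with exon length was removed.

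The amounts of the subunits relative to each other were compared within libraries. The level of Vha68-2 over that of Vha55, the partners of the catalytic hexamer, had a mean of 0.619 ± 0.104 over 17 libraries. It was 0.590 to 0.685 in S106 control, 0.607 to 0.788 in S106 switch, 0.412 to 0.609 in S106>UASfoxo control and 0.526 to 0.753 in S106>UASfoxo switch. This was the only ratio of the 6 computed with more variance between groups (54.8%) than between runs of library numbers (29.4%), and all groups overlapped, with S106>UASfoxo control lowest at a mean of 0.497 ± 0.0905. No test was made of the ratio. The peripheral stalk pair, Vha13 over Vha26, stood at 1.29 ± 0.135, and the central stalk pair, Vha36-1 over Vha14-1, at 1.23 ± 0.213. Vha16-1 over VhaAC39-1 stood at 4.10 ± 0.689 and VhaPPA1-1 over VhaAC39-1 at 0.930 ± 0.137, with 46.8% and 67.6% of their variance between runs. VhaM9.7-b over VhaM9.7-c, the remaining ratio, stood at 1.21 ± 0.189.

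The leading genes varied together. Their log2 CPM, centred within groups, had a median pairwise r of 0.525 over 78 pairs of 13 genes, with a jackknife SE of 0.114, and 67 of the 78 pairs were above 0. Over all pairs of the 9819 genes tested the median was 0.0023, and −0.0031 without centring. Those genes include ones with low counts, so they are not a matched reference for the leading genes. The strongest pairs were Vha26 with Vha13 at 0.92, which encode the peripheral stalk, Vha26 with VhaAC39-1 at 0.91, Vha13 with VhaAC39-1 at 0.90 and Vha55 with Vha68-2 at 0.89, which encode the catalytic pair. Pairs across the sectors had a median r of 0.598, pairs within V1 0.316 and pairs within V0 0.470. The genes did not separate by sector.

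In the plot of pairwise correlations 2 sets of leading genes appear. Vha68-2, Vha55, VhaSFD and VhaAC45 had r of 0.65 to 0.89 with each other, and Vha36-1, Vha26, Vha13, VhaAC39-1, Vha14-1 and VhaM9.7-b had r of 0.54 to 0.92 with each other. Between the sets r was −0.45 to 0.45. Vha100-2 had 0.35 to 0.78 with the first set and −0.06 to 0.69 with the second. The leading genes Vha16-1 and VhaPPA1-1 were placed in neither set. Vha16-1 had r of 0.54 to 0.86 with the second set and 0.22 to 0.50 with the first. VhaPPA1-1 had 0.56 to 0.74 with the second set and 0.24 to 0.62 with the first. This grouping was read from the values and was not tested. All genes of the first set have exons of at least 2.01 kb, and all of the second except Vha26 have exons of at most 1.79 kb. Vha16-1, which went with the second set more than the first, has 3.08 kb of exon, and VhaPPA1-1 has 1.35 kb. After removal of the exon length trend the sets were less distinct. Pairs within the first set then had r of 0.54 to 0.84 and within the second 0.54 to 0.95, while pairs between them reached 0.64, for VhaSFD with Vha36-1, and 0.63, for Vha68-2 with Vha36-1. With the runs of library numbers removed instead, r was 0.36 to 0.85 within the first set and 0.42 to 0.89 within the second. Between the sets it was then −0.63 to 0.54, so these ranges overlapped.

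**Figure D3:**
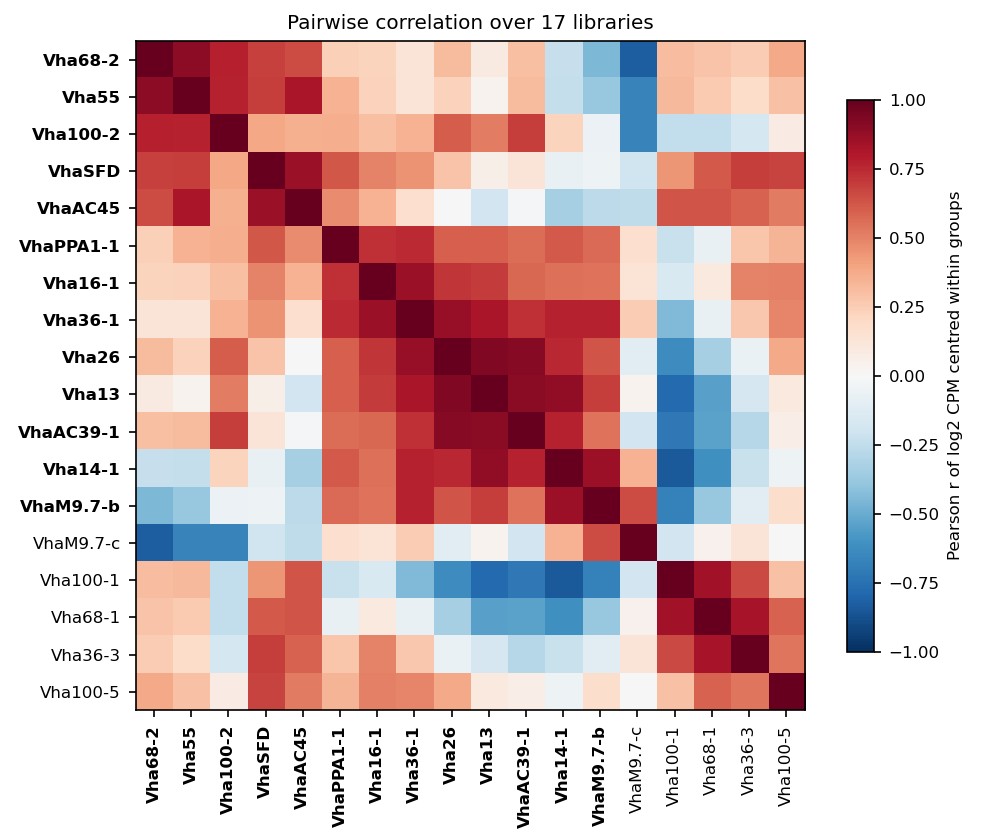
Pearson r between the log2 CPM of each pair of the 18 tested V-ATPase genes over 17 libraries, after centring within groups; red is positive and blue negative, and leading paralogues are in bold. The non-leading paralogues Vha100-1, Vha68-1 and Vha36-3 go together, with r of 0.66 to 0.84.

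The other tested paralogues followed the leading genes less closely and unevenly. Their median r with the leading genes was 0.063 over 65 pairs, and 0.415 among themselves over 10 pairs. Vha68-1 and Vha100-1 had an r of 0.84, Vha68-1 and Vha36-3 0.82 and Vha100-1 and Vha36-3 0.66. With the leading genes their r ran from −0.84, for Vha100-1 with Vha14-1, and −0.82, for VhaM9.7-c with Vha68-2, to 0.68 for Vha100-5 and 0.70 for Vha36-3, both with VhaSFD. Vha100-5 was above 0 with all leading genes but Vha14-1, where it had −0.05. Vha68-1 had an r of only 0.28 with its paralogue Vha68-2.

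Marker lists were set beside the members. The mean of the 13 leading genes had an r of 0.900 and a rho of 0.863 with the mean of 14 Malpighian tubule markers, 0.910 without the 2 libraries farthest from the median and 0.717 with the runs of library numbers also removed. With fat body markers its r was −0.106. Vha68-1, by contrast, had an r of 0.946 with 11 fat body markers, which was 0.878 with the runs also removed, and Vha100-1 had 0.882. The division was not one of leading against other paralogues, since the leading genes VhaAC45 and VhaSFD had 0.728 and 0.676 with the fat body markers, Vha100-5 had 0.496 and VhaM9.7-c 0.082. Vha36-3 had an r of 0.866 with 26 lysosomal hydrolase and membrane protein genes. Vha68-1, Vha100-1 and Vha36-3 had r of −0.836, −0.842 and −0.700 with the ovary and eggshell markers.

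**Figure D4:**
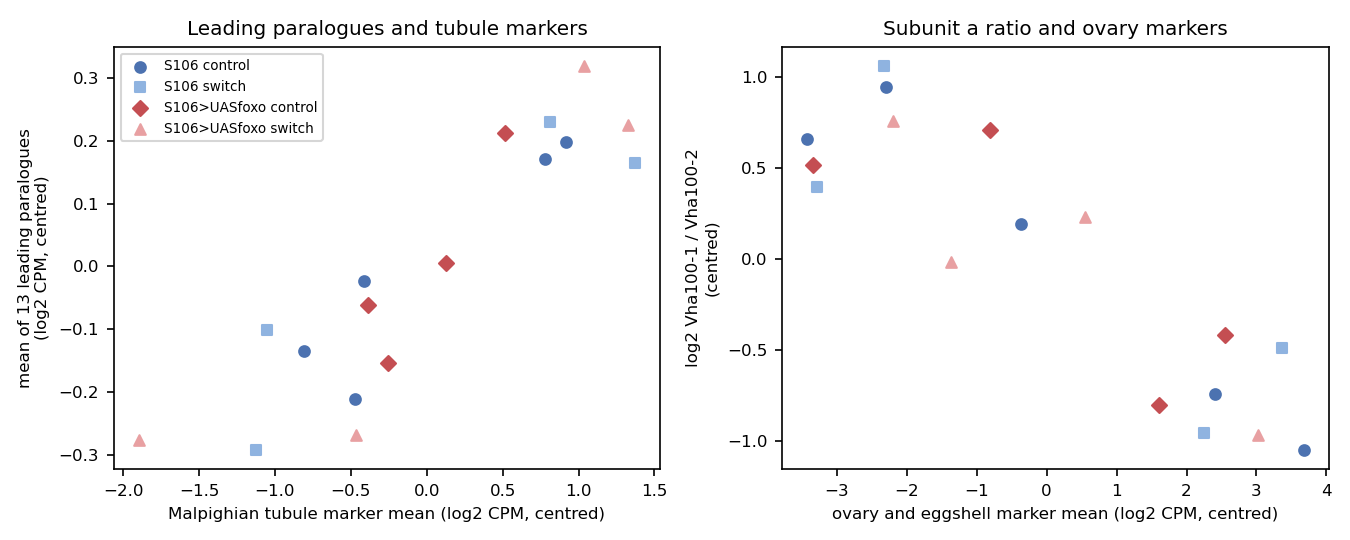
Left, mean log2 CPM of the 13 leading genes against the mean of the Malpighian tubule markers; right, log2 ratio of Vha100-1 to Vha100-2 against the mean of the ovary and eggshell markers, all centred within groups. Each symbol is 1 of 17 libraries; the points run upwards on the left (r = 0.900) and downwards on the right (r = −0.887).

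Uro, the urate oxidase gene that defines the tubule, ran from 1.20 to 246 CPM with a median of 53.7. The tubule marker list summed to 324 to 712 CPM in S106 control and 299 to 717 in S106 switch. It summed to 320 to 504 in S106>UASfoxo control and 287 to 777 in S106>UASfoxo switch. The sum of 287 was in replicate 1 of S106>UASfoxo switch, with Uro at 1.20, Oatp58Dc at 1.03 and Irk2 at 3.93 CPM. Other listed genes made up most of that sum. The summed CPM of all 30 V-ATPase genes ranged from 2416 to 3748, a 1.55-fold span, with 80.3% of its variance between runs of library numbers and 11.0% between groups. The group means were 3233 ± 408 in S106 control (n = 5), 3010 ± 566 in S106 switch, 2837 ± 217 in S106>UASfoxo control and 3036 ± 611 in S106>UASfoxo switch (n = 4 each), and all groups overlapped. The part of tubule RNA in the levels of the leading genes was not tested.

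The genes whose pattern was most like the mean of the leading genes were ranked by r over the 17 libraries, centred within groups. First was FBgn0262511, an identifier for which no name was matched, with an r of 0.936 and 113 to 228 CPM. Whether it belongs to one of the Vha symbols that matched no row could not be settled, so it may not be independent of the members. It was followed by CG9993 at 0.931, CG17999 at 0.922, Irk2 at 0.919, Lgr1 at 0.919, CG13285 at 0.913, otp at 0.910, CG5404 at 0.907, CG42656 at 0.903 and CG4459 at 0.903. Irk2 encodes an inward rectifier potassium channel and is a member of the tubule marker list, Lgr1 encodes a glycoprotein hormone receptor and otp a homeobox factor. After FBgn0262511 these genes were low, with mean CPM of 1.01 to 16.6, and all of them but Irk2 and Lgr1 had a lowest value of 0 CPM. With the runs of library numbers also removed, r was 0.781 for FBgn0262511 and 0.578 to 0.760 for the genes after it.

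The effect of having fed RU486 to flies with UASfoxo was read between the 2 S106>UASfoxo groups, after the inducer had been withdrawn. Vha68-2, the catalytic A gene, had 205, 311, 177 and 169 CPM in the switch libraries and 201, 105, 118 and 73.6 CPM in the control libraries. The first control library lay within the switch range and the other 3 lay below it. The log2 fold change was 0.79 ± 0.30 (SE), with an adjusted p of 0.293 in edgeR's quasi-likelihood test, and it was 0.85 with the runs of library numbers as a block. VhaAC45 had 141, 208, 159 and 172 CPM in the switch libraries and 128, 138, 141 and 60.9 CPM in the control libraries, and these groups did not overlap, by a small margin. Its log2 fold change was 0.54 ± 0.25, with an adjusted p of 0.384 in the same edgeR test, and 0.32 without S106>UASfoxo control replicate 4.

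No V-ATPase gene passed the threshold in that comparison. Over all genes, edgeR called 0 of 9819, or 0%, limma-voom also called 0, and DESeq2 called 41 higher and 12 lower. DESeq2 and limma-voom also called 0 of the 18 members. Of the members, 10 were higher and 8 lower, with a median log2 fold change of 0.04, against −0.02 over all genes tested. At an unadjusted p under 0.05 there were 2 higher members, Vha68-2 and VhaAC45, and 0 lower, where 10.1% of all genes were higher and 2.82% lower by that rule. VhaAC45 was the single member whose groups did not overlap, and 2.27% of all genes were higher without overlap. DESeq2 gave 2 higher and 1 lower at an unadjusted p under 0.05, against 986 and 533 of all 9819 genes. Limma-voom gave 3 and 0, against 1058 and 213 of all genes.

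The direction of the fold changes went with transcript length. Besides Vha68-2 and VhaAC45, the long genes Vha100-1, Vha68-1, Vha100-2 and Vha55 had log2 fold changes of 0.72 ± 0.35, 0.72 ± 0.43, 0.53 ± 0.34 and 0.45 ± 0.24, while the short genes VhaM9.7-c, Vha13, Vha14-1 and VhaM9.7-b had −0.37 ± 0.20, −0.33 ± 0.28, −0.33 ± 0.30 and −0.33 ± 0.23. None of these passed the adjusted threshold. Without S106>UASfoxo control replicate 4, Vha55 stood at 0.24, Vha13 at −0.11, Vha14-1 at −0.09 and VhaM9.7-b at −0.16, and Vha100-2 stood at 0.93 without replicate 1 of that group. The Spearman rho of fold change with exon length was 0.664 over the 18 members and 0.377 over the 9739 tested genes with a known exon length. The long genes Vha26, Vha16-1 and Vha100-5, at −0.22 ± 0.26, 0.01 ± 0.23 and 0.06 ± 0.89, did not follow. With the exon length trend of each library removed, Vha68-2 stood at 0.62, VhaAC45 at 0.47, Vha13 at −0.17 and VhaM9.7-c at −0.16.

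Between the genotypes without the inducer, the longest genes mostly had negative values, in a comparison that uses the same S106>UASfoxo control libraries. Vha68-2 had 257, 225, 252, 217 and 208 CPM in S106 control, each above the 4 values of S106>UASfoxo control given above. The log2 fold change of S106>UASfoxo control against S106 control was −0.90 ± 0.29, with an adjusted p of 0.392 in edgeR's test, and −0.90 with the runs as a block. It ranged from −1.23 to −0.71 when single libraries were left out. VhaAC45 had 179, 176, 207, 172 and 144 CPM in S106 control, again above every S106>UASfoxo control library. Its log2 fold change was −0.59 ± 0.24, with an adjusted p of 0.409 by edgeR, and −0.37 without S106>UASfoxo control replicate 4.

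Vha55 stood at −0.56 ± 0.23 in that comparison, and at −0.36 without S106>UASfoxo control replicate 4. Vha100-2 stood at −0.70 ± 0.33, and at −1.10 without S106>UASfoxo control replicate 1. With Vha68-2 and VhaAC45 these were the 4 lower members at an unadjusted p under 0.05, against 0 higher, where 8.83% of all genes were lower and 2.2% higher by that rule. The 2 members without overlap between groups were Vha68-2 and VhaAC45, and 3.14% of all genes were lower without overlap. Of the 9819 genes edgeR called 0.0407%, DESeq2 14 higher and 4 lower, and limma-voom 2 higher and 0 lower. Among the members, 0 passed by edgeR, DESeq2 or limma-voom. At an unadjusted p under 0.05 DESeq2 gave 1 higher and 5 lower members, against 368 and 936 of all 9819 genes. Limma-voom gave 0 and 5, against 220 and 914 of all genes. In all, 7 members were higher and 11 lower, with a median of −0.15, against −0.01 over all genes. The rho with exon length was −0.682 over the members and −0.434 over all genes. With the length trend removed Vha68-2 stood at −0.73. There 2 members were lower at an unadjusted p under 0.05, against 650 of all 9819 genes.

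**Figure D5:**
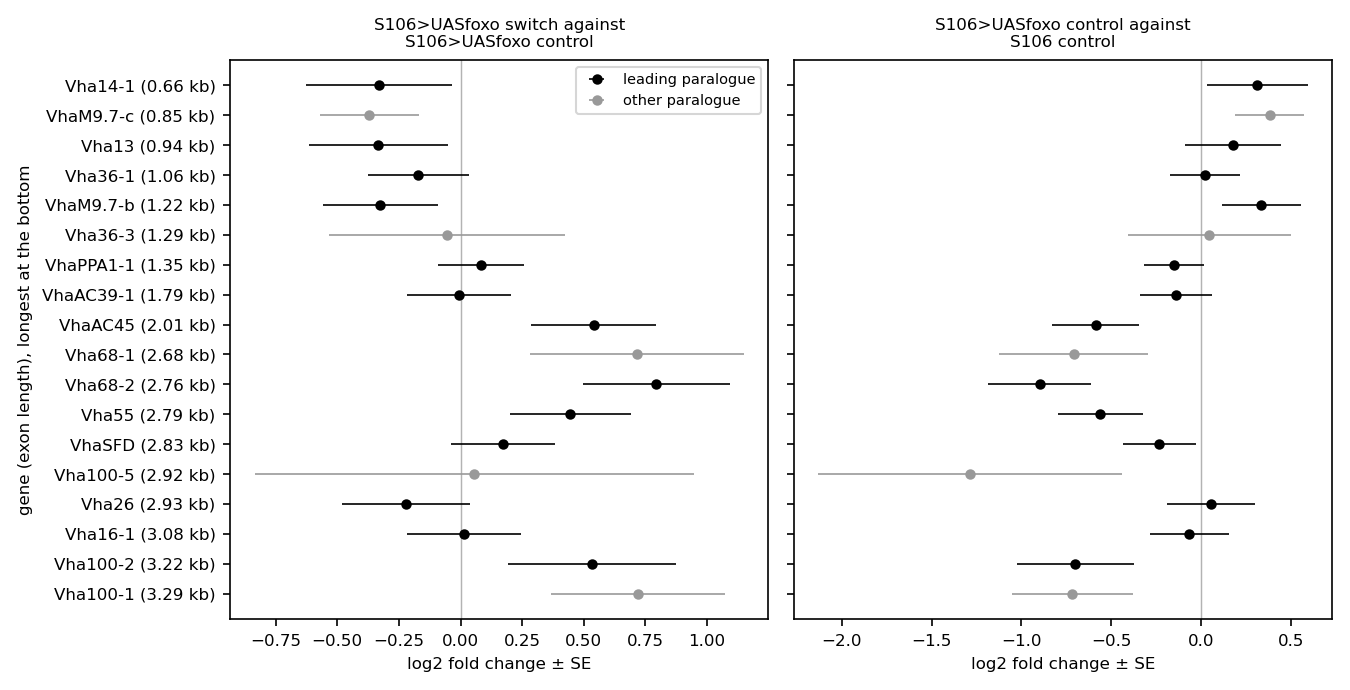
Log2 fold change with its SE of the 18 tested V-ATPase genes in the 2 comparisons that use the S106>UASfoxo control libraries, from the longest exon length at the bottom to the shortest at the top; leading paralogues are black and the others grey. On the left Vha68-2 stands at 0.79 and VhaM9.7-c at −0.37, on the right at −0.90 and 0.38, and no gene passed the adjusted threshold on either side.

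The driver alone was compared with and without RU486. Of the members, 4 were higher and 14 lower, with a median log2 fold change of −0.10, against 0.01 over all genes, and 0 passed by edgeR, DESeq2 or limma-voom. EdgeR called 0% of all genes, 0.693% had an unadjusted p under 0.05, and 0 members did. Over all genes, DESeq2 called 0 higher and 1 lower, and limma-voom 0. Vha16-1 stood at −0.23 ± 0.22 and Vha68-2 at 0.15 ± 0.28, and the groups of every member overlapped. Vha100-5 had the widest value, −1.39 ± 0.85, and −0.75 without S106 control replicate 4.

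The switch effects of the 2 genotypes were compared directly. The difference of the effects was positive for 13 members and negative for 5, with a median of 0.25, against 0.04 over all genes. Vha68-2 stood at 0.64 ± 0.41, VhaAC45 at 0.53 ± 0.35 and Vha55 at 0.48 ± 0.34, with an adjusted p of 0.950 for each in edgeR's test. Single libraries moved these values, Vha68-2 to 0.41 without S106>UASfoxo switch replicate 2, and VhaAC45 to 0.31 and Vha55 to 0.28 without S106>UASfoxo control replicate 4. EdgeR called 0% of all genes and 1.88% had an unadjusted p under 0.05, while 0 members did either. Between the induced genotypes, S106>UASfoxo switch against S106 switch, 10 members were higher and 8 lower, with a median of 0.02 against −0.03 over all genes. Vha68-2 stood at −0.26 ± 0.30 there, 0 members had an unadjusted p under 0.05, and edgeR called 0.0509% of all genes, with 1.57% at an unadjusted p under 0.05. DESeq2 and limma-voom called 0 members in both of these comparisons. Over all genes, both tools called 0 for the difference of the effects. Between the induced genotypes DESeq2 called 6 higher and 3 lower, and limma-voom 3 higher and 1 lower.

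Genes that work with the pump were read beside it, as lists of known partners. Of 18 assembly factors, partners and lysosomal TOR regulators, 9 were higher and 9 lower in S106>UASfoxo switch against S106>UASfoxo control, and 0 passed by edgeR, DESeq2 or limma-voom. The 2 of smallest p were Rbcn-3A and Rbcn-3B, whose products form the rabconnectin complex that promotes assembly of the V-ATPase. Their log2 fold changes were 0.92 ± 0.26 and 0.80 ± 0.24, with adjusted p of 0.273 and 0.274 by edgeR, and 4 of the 18 were higher and 0 lower at an unadjusted p under 0.05, against 10.1% and 2.82% of all genes. In S106>UASfoxo control against S106 control the same 2 genes had the smallest p, at −0.77 ± 0.25 and −0.66 ± 0.23, with an adjusted p of 0.392 for each by edgeR. These comparisons share the S106>UASfoxo control libraries. With RU486 in the driver alone the 2 genes of smallest p were raptor, a subunit of the TOR complex, at 0.56 ± 0.32 and Lamtor1, of the complex that anchors TOR signalling at the lysosome, at −0.32 ± 0.20. Each had an adjusted p of 0.9997 by edgeR. ATP6AP2, the accessory subunit gene that is not a member, ran from 95.9 to 162 CPM, and Mitf, a transcription factor of lysosomal and V-ATPase genes in flies, from 66.8 to 156 CPM.

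Lysosomal genes and the mitochondrial ATP synthase gave a reference for the pump. Of 26 lysosomal genes tested, 16 were higher and 10 lower in S106>UASfoxo switch against S106>UASfoxo control, with a median of 0.16. The hexosaminidase genes Hexo1 and Hexo2 had log2 fold changes of 1.17 ± 0.42 and 1.72 ± 0.64, with adjusted p of 0.278 and 0.290 by edgeR. Of the 13 genes of the related F-type ATP synthase, 5 were higher and 8 lower, with a median of −0.07. Its catalytic-sector gene blw stood at 1.39 ± 0.48, with an adjusted p of 0.274 by edgeR, and ATPsyngamma at 0.54 ± 0.37. No gene of either list passed by edgeR, DESeq2 or limma-voom, and at an unadjusted p under 0.05 3 of the 26 lysosomal genes and 1 of the 13 ATP synthase genes were higher and 0 lower, close to the 10.1% of all genes that were higher by that rule.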

How the data were processed

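Poly(A) RNA was sequenced from fat body and gut in 35 samples. The authors deposited raw read counts per gene. Tools named in the submitters' processing notes are HISAT2, featureCounts, SAMtools, FastQC and DESeq2. Not given in the sources used here are the build, annotation, strand setting, treatment of reads with several matches, and whether the kit's molecular barcodes removed PCR copies. Groups follow the induction label and titles, since RU486 stands in the treatment label of all samples. The gut counts were not analysed here, because mean counts of the 12011 identifiers shared with the fat body had a Spearman rho of 0.0146.

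Symbols matched 14538 of 14649 fat body rows, and 0 members had counts identical to another row. Exon lengths (99.2% of rows) came from the BDGP6.54 annotation of Ensembl 115, which may differ from the authors'. EdgeR 4.0.16 (R 4.3.3) fitted all 17 fat body libraries with 1 mean per group, filterByExpr, TMM scaling and the robust quasi-likelihood test, with Benjamini-Hochberg adjustment at 0.05 over 9819 genes. The common biological coefficient of variation was 0.510. A prior count of 2 went into log2 CPM. The tests were checked on simulated data.

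Members and lists were chosen with earlier results of these data known. Named genes are all Vha rows, the 2 of smallest p in each partner list, and the 10 genes most alike in pattern. Alternatives were DESeq2 1.42.0, limma-voom (limma 3.58.1), RLE scaling, no filter or at least 1 CPM in 4 libraries, only the groups compared, replicate blocks, a threshold of 0.01, other length measures for shares, other centring and rho for the correlations, and leaving out each library. The exon length trend was removed as an alternative chosen after seeing the data. Title numbers did not pair the fat body libraries. Runs of library numbers paired only the control groups, with r of 0.406 to 0.737 over 4 pairs. A search of promoters for motifs was not run, as no sequence was at hand.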

Additional observations from a re-analysis of the deposited data

Results flagged for a closer look

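In 72 sets of 4 or 5 libraries (18 tested genes in 4 groups), 6 held a library that lay far from the rest of its group by Dixon's test on log2 CPM. Chance gives such a library in about 1 set in 20. Of the 6, 3 fall in S106>UASfoxo control replicate 4, the library with the fewest counts (6708078) and the lowest sum of fat body markers. There VhaAC45 was at 60.9 CPM, against 128 to 141 in the rest of the group, Vha68-1 at 5.05 CPM, against 9.76 to 10.9, and Vha16-1 at 1155 CPM, against 968 to 980. VhaPPA1-1 was at 114 CPM in S106>UASfoxo control replicate 2, against 88.0 to 89.2. In the S106>UASfoxo switch group Vha68-1 was at 8.66 CPM in replicate 4, against 16.3 to 17.5, and Vha36-3 at 9.68 CPM in replicate 2, against 6.19 to 6.46.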

How the results depend on the processing

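No V-ATPase gene was called in any of the 5 comparisons by edgeR, DESeq2 or limma-voom, or under any other alternative run. The median log2 fold change of the members moved by less than the spread between libraries under each alternative. That spread was an SD of 0.239 of the members' mean log2 CPM within groups. The main medians ran from −0.15 to 0.25, so few changes could exceed it, and a change of sign could pass. The 13 leading genes were refitted under each alternative in each comparison, which gave 1235 values. Of these, 110 had another sign than in the main fit, and 0 of the 338 whose main value exceeded 1 SE did. The refits reuse nearly the same libraries and are not independent, so a main value beyond 1 SE could hardly change sign in them. The share of VhaM9.7-b in subunit e was 63.1% without length correction, against 54.4%. The median correlation of the leading genes was 0.406 with runs of library numbers also removed, against 0.525, and 0.454 to 0.582 with single libraries left out. In the fits with a replicate block, by title number or by run of library numbers, the count of called members was 0 in each comparison and the block changed no call; the median for S106>UASfoxo switch against S106>UASfoxo control was 0.01 with title numbers and −0.04 with runs. With 4 or 5 libraries a group and a coefficient of variation of 0.510, the spread between libraries limits which fold changes can be detected.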

Other observations

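Hemocyte markers, which include the type IV collagen genes that the fat body also makes, had an r of 0.900 with Vha100-1 and 0.909 with Vha68-1 over the 17 libraries, and −0.408 with the mean of the 13 leading genes. Muscle markers had an r of 0.891 with Vha36-3 and 0.873 with Vha68-1. In the F-type ATP synthase list, all 13 genes were higher in S106>UASfoxo switch against S106 switch, with a median log2 fold change of 0.30. Over all genes tested 46.2% were higher there, with a median of −0.03. This was not particular to the list. All tested muscle (11), enterocyte (10) and oenocyte (5) markers were higher too, with medians of 0.34, 1.52 and 0.21. Every other list had genes in both directions. Of the ATP synthase genes, 0 passed in edgeR's test. At an unadjusted p under 0.05 there were 0, against 1.57% of all genes. DESeq2 and limma-voom also called 0 of them.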
